A study of Mus musculus with 12 samples.

Results

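The RNA of purified central nervous system myelin was compared between young adult mice at postnatal day 75 (P75) and mature mice at 6 months of age. The 2 ages hold 6 of the 12 libraries of the study, 3 at P75 and 3 at 6 months, all from wild-type mice. Per the study's methods the mice were male c57Bl6/N animals of 1 breeding colony, no treatment or genetic change was applied, and light membranes enriched for myelin were taken from whole brains on a sucrose gradient. Each library of 6 months came from 1 mouse. For P75 the labels give replicate numbers only, so that the spread there may be partly technical. The other libraries, 3 at P18 and 3 at 24 months, served here for the estimate of the spread between libraries and for levels given beside some results. Of the 21937 genes in the table, 14634 reached an average of 10 normalized reads across the 12 libraries and were tested.

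Myelin is the multilayered membrane that oligodendrocytes wrap around axons, and it speeds the conduction of nerve impulses and supports the axon metabolically. Some messenger RNAs, of which Mbp is the best known, are carried along microtubules into the myelin sheath and translated there. Developmental myelination of the mouse brain has largely ended in young adults, while remodeling of the sheath and membrane turnover go on. The fraction is made from homogenized brain, so RNA from axons, synaptic terminals, astrocytes, microglia and vessels that travels with the membranes would be counted too. In a bulk sample of this kind, a changed amount of such material and a changed level of RNA per unit of it cannot be told apart.

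The values are normalized read counts, that is, reads on a gene divided by a size factor of the library. They were not divided by transcript length, so that levels are comparable between ages for 1 gene and not between genes. The libraries held 20299052 to 24097818 reads on genes at P75 and 22802169 to 27214385 at 6 months. Across the tested genes, Pearson's r on log2(normalized read count + 1) was 0.9906 to 0.9936 between libraries at P75, 0.9933 to 0.9944 between libraries at 6 months, and 0.9497 to 0.9744 between a library of each age. These r are taken across genes, which are not independent replicates. Defining myelin transcripts led the libraries, as Mbp took 4.76% to 7.03% of the reads at P75 and 5.14% to 8.48% at 6 months. Changes are given as log2 changes, 6 months minus P75, on log2(normalized read count + 1), which understates changes of genes with few reads. A change was called where limma gave an adjusted p under 0.1, with Benjamini-Hochberg adjustment over all tested genes. Errors are the SD of 3 libraries, and SE is the standard error of the log2 change.

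A majority of the transcripts differed between the ages by this test. A change was called for 8865 of the 14634 genes (60.6%), of which 4561 rose (31.2% of the tested genes) and 4304 fell (29.4%). Because so many passed, every gene with an unadjusted p under 0.05 was called. Most of these changes were small. Over 2-fold, 1362 genes changed (9.31%), with 776 that rose (5.30%) and 586 that fell (4.0%). The shares of 31.2% and 29.4% are the background against which the counts in the gene lists below are to be read. Where named genes are said not to overlap between the ages, this describes those genes only. Many of them were named as the largest called changes of their lists, and the share of all genes without overlap is not given here. Over the tested genes the median log2 change was 0.005. Among the 302 genes with a mean over 10000, 83 rose and 122 fell (40.4%), whereas among the 4154 genes between 1000 and 10000 1518 rose (36.5%) and 1264 fell. Below a mean of 100, 794 of 3350 genes rose and 835 fell, and the median SE there was 0.248 against 0.096 between 1000 and 10000.

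**Figure D1:**
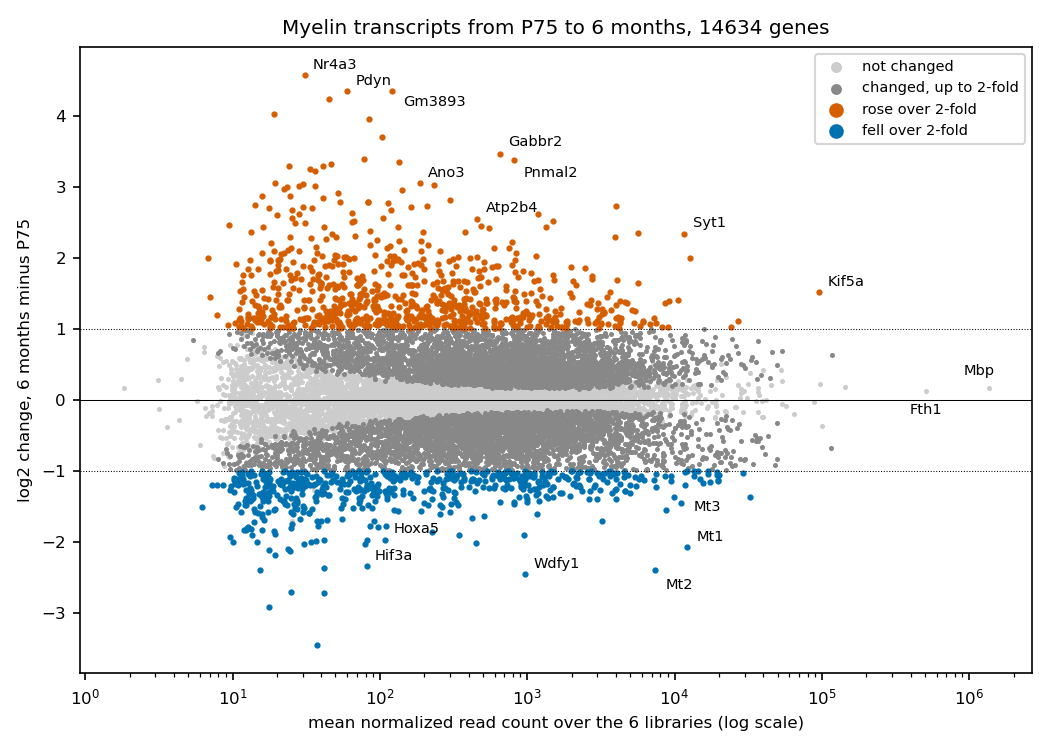
Log2 change from P75 to 6 months against the mean normalized read count over the 6 libraries (log scale), 1 point for each of the 14634 tested genes. Orange and blue points rose or fell over 2-fold (776 and 586 genes), dark grey points changed by less, light grey points were not called. Mbp and Fth1 at the far right lie near 0, Syt1 and Kif5a lie above, and the metallothionein genes Mt1 and Mt2 lie below.

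Transcript length moved with the direction of change. In the 10% of genes with the shortest merged exons (39 to 1485 bases), the median log2 change was -0.526, with 906 of 1428 genes called lower (63.4%) and 130 called higher (9.1%). In the longest 10% the median was 0.124, with 267 called lower and 576 called higher (40.3%). The shortest 10% alone held 238 of the genes that fell over 2-fold. Each 6-month library had this slope against the P75 mean, with medians for the shortest 10% of -0.682 in replicate 1, -0.458 in replicate 2 and -0.435 in replicate 3. Relative to the mean of the 6 libraries of both ages, the short genes stood above the long genes by 0.223 to 0.397 at P75. At 6 months they stood below them by 0.187 to 0.552, and replicate 1 lay farthest out. With this reference a difference between the 2 ages shows as opposite signs. Within a gene list, the change therefore has to be read beside the length of its members. A second fit removed from each library the smooth trend on exon length and GC content, for the 14019 genes with both values. It called 4232 genes higher (30.2%) and 4202 lower (30.0%), and over 2-fold 719 higher (5.13%) and 320 lower (2.28%). The share of the 2-fold calls that rose was 57% in the first fit and 69.2% in the second. Values of this second fit are called length-corrected below. Exon length here is that of all annotated exons of a gene merged, which can exceed the length of its mRNA. The cause of the slope was not tested.

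**Figure D2:**
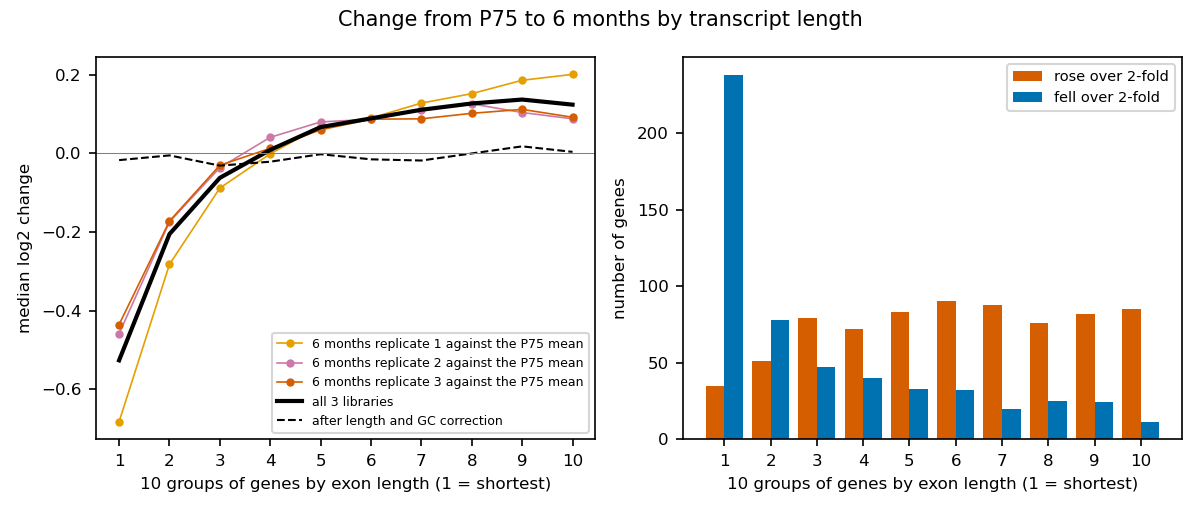
Left, median log2 change from P75 to 6 months (y axis) in 10 equal groups of genes by merged exon length (x axis, 1 is shortest), for all 3 libraries at 6 months, for each of them against the P75 mean, and after the length and GC correction. The shortest group lies at -0.526, the longest at 0.124, and the corrected line near 0. Right, number of genes per group that rose or fell over 2-fold, with 238 falls in the shortest.

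Rises and falls are ranked here among called genes with a mean over 100 at either age and no overlap between the ages. Among the 10 largest rises, Pdyn and Gabbr2 are genes known from neurons. Pdyn, which encodes the opioid peptide precursor prodynorphin, lies on chromosome 2 from 129512301 to 129525580 (build mm9, as all gene positions here). Its normalized read count was 8.02, 1.85 and 5.53 in the P75 libraries and 158, 85.2 and 101 in those of 6 months. The log2 change was 4.34 (SE 0.49, adjusted p = 3.2e-06), and at 24 months the values were 51.5, 54.1 and 84.2. Gabbr2, on chromosome 4 from 46675190 to 47004745, encodes a subunit of the metabotropic GABA-B receptor. It had 131, 108 and 82.9 at P75 and 1522, 1008 and 1056 at 6 months. Its log2 change was 3.46 (SE 0.18, adjusted p = 7.0e-09), whereas the mRNA of the partner subunit, Gabbr1, rose by 0.81, from 8219 ± 713 to 14393 ± 953. Ano3, of the anoctamin family of membrane proteins, went from 57.1, 33.4 and 29.9 to 437, 269.8 and 295, and Pnmal2, a paraneoplastic antigen family gene with a single exon on chromosome 7 from 17530031 to 17532427, from 195, 157 and 87.3 to 1824, 1279 and 1309. Their log2 changes were 3.05 (SE 0.28) and 3.38 (SE 0.21). In these genes, 6-month replicate 1 was the highest of its age. That the ages did not overlap was a condition of the ranking.

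Other genes of the 10 largest rises belong to loci where reads can be shared. Pcdhgc5 and Pcdhgc3, clustered protocadherins that share their last exons with the rest of the gamma cluster, rose by 3.70 and 3.02. Gm3893 had 6.01, 18.5 and 9.95 at P75, 244, 233 and 218 at 6 months and 10.9, 16.2 and 17.6 at 24 months, so that it was high at 6 months alone among these ages, and its log2 change from P75 was 4.35 (SE 0.31). Gm3893 and Gm7120 (log2 change 3.96) have near-identical copies in the genome, and Zbed6 (3.38) sits within the intron of another gene, so that the counts of these 3 are uncertain. Among the 302 genes with a mean over 10000, the largest rise was that of Syt1, the calcium sensor of synaptic vesicle release. It had 4142, 3940.5 and 3470.1 at P75 and 22037, 18319 and 18059 at 6 months, a log2 change of 2.34 (SE 0.13, adjusted p = 8.6e-09), and 13645, 16051 and 17934 at 24 months. At 24 months Syt1 was below every 6-month library and far above every P75 library, and Gabbr2 (459.7, 596 and 639) also lay between both ages.

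**Figure D3:**
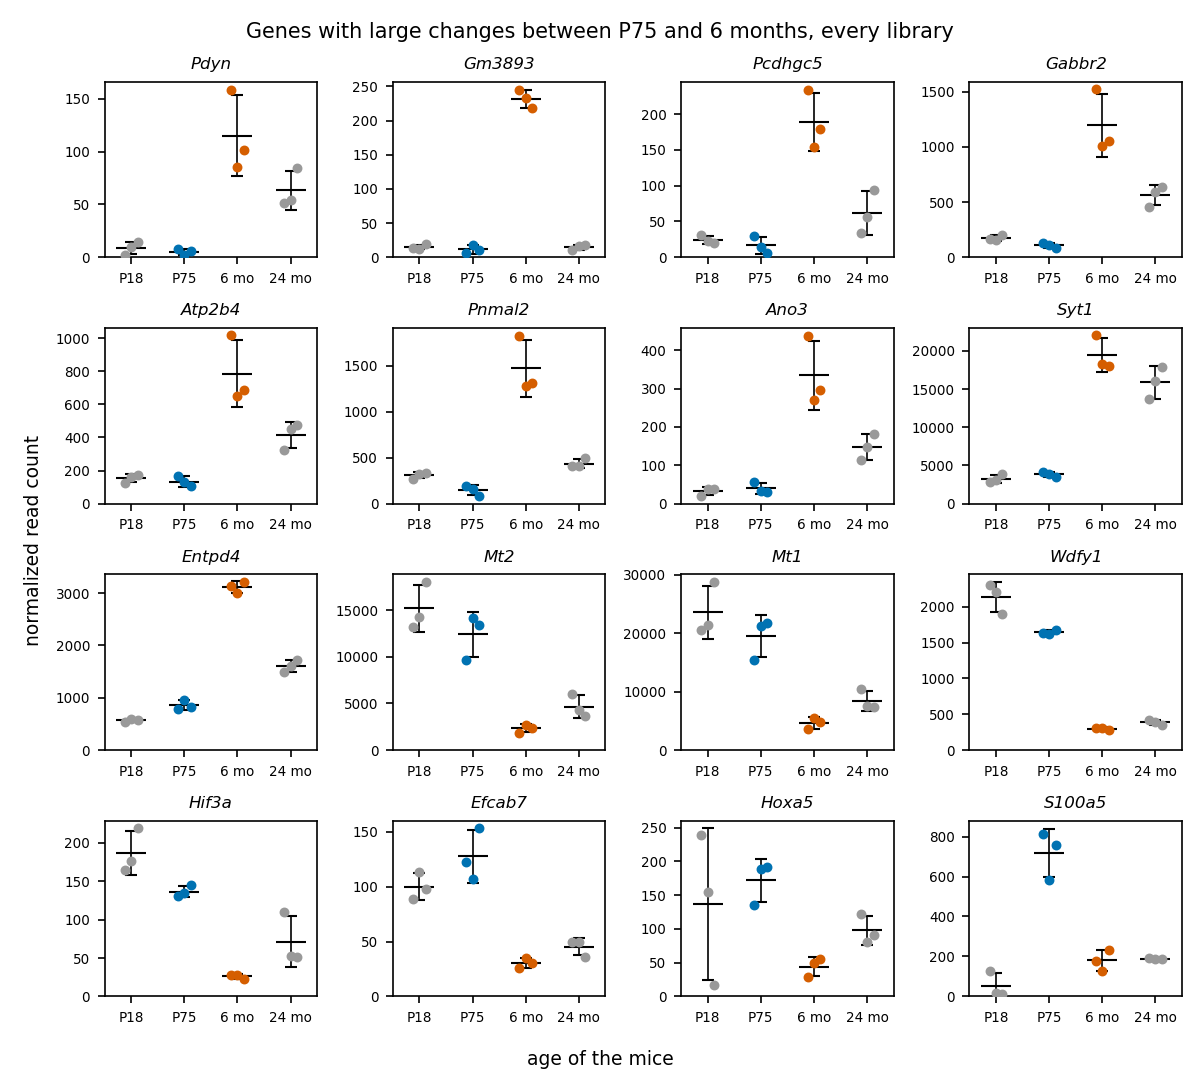
Normalized read count (y axis, from 0) in each library by age (x axis) for 16 genes with large changes. Points are libraries, black bars the mean ± SD of 3 libraries (cut at 0), P75 in blue, 6 months in orange, the other ages in grey. In every panel the P75 and 6-month points are apart, which was a condition for the genes ranked as largest rises or falls. Gm3893 is high at 6 months only, Wdfy1 is nearly as low at 24 months as at 6 months, and Hoxa5 and S100a5 vary among the P18 libraries.

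The largest fall was that of Wdfy1, which encodes an endosomal protein with a FYVE domain (chromosome 1 from 79698837 to 79772718, overlapped by Mrpl44). Its values were 1639.5, 1619.8 and 1678 at P75 and 310.4, 305 and 279 at 6 months. The libraries of an age were nearly alike and the ages far apart (log2 change -2.46, SE 0.09, adjusted p = 1.4e-10). Hif3a, an oxygen-regulated transcription factor gene that glucocorticoids also raise, fell from 130.3, 134 and 145 to 27.6, 28.4 and 22.4 (log2 change -2.35, SE 0.23). S100a5, a calcium-binding protein gene known from olfactory neurons, went from 811, 584 and 759.5 to 177, 128 and 234.5. Its SE was 0.58, the P18 libraries spread from 10.04 to 129.5, and with the length correction the change was -0.99 and no longer called (adjusted p = 0.167). Amy1, the salivary and liver amylase gene, had 543, 532 and 564 at P75 and 130.0, 133 and 173 at 6 months, but 528, 426 and 292 at 24 months. Efcab7, 0610040B10Rik and Wibg fell by 2.03, 1.98 and 1.90 on the log2 scale. Efcab7 overlaps Itgb3bp and 0610040B10Rik overlaps Zdhhc4, so that their reads may be shared with these neighbors.

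The metallothioneins fell together. Mt1 and Mt2 bind zinc and copper, are expressed mainly in astrocytes of the brain and are induced by metals and glucocorticoids, and Mt3 is the brain form. Mt1 had 15336, 21314 and 21798 at P75 and 3609.6, 5532 and 4760.4 at 6 months, a log2 change of -2.08 (SE 0.18, adjusted p = 4.2e-07). Mt2 had 9643, 14124 and 13438 and 1872, 2736 and 2396 (-2.41, SE 0.19), and Mt3 13512, 17252 and 17861 and 4542, 6533 and 6764 (-1.46, SE 0.14). All 3 were lower in every 6-month library than in every P75 library, which for Mt1 and Mt2 was a condition of the ranking. Together they took 0.214% ± 0.0387 of the reads at P75 and 0.0567% ± 0.00915 at 6 months (SD, n = 3 each). These transcripts are among the shortest, with 753, 556 and 538 exon bases, and with the length correction the changes were smaller but still called, at -1.41, -1.62 and -0.67. At 24 months the means were 8455, 4659 and 8451, between those of P75 and 6 months. The genes lie side by side on chromosome 8 (Mt1 from 96702989 to 96704225 in mm9), and their promoters are printed below because the 3 neighbors moved together. The sequences run from 250 bases before to 50 after the start (RefSeq, build GRCm38.p6, plus strand), at chr8:94178839-94179138 for Mt1, chr8:94172368-94172667 for Mt2 and chr8:94152357-94152656 for Mt3. Capitals mark the core of the metal response element, searched as TGCACNC and TGCGCNC on both strands.
Mt1: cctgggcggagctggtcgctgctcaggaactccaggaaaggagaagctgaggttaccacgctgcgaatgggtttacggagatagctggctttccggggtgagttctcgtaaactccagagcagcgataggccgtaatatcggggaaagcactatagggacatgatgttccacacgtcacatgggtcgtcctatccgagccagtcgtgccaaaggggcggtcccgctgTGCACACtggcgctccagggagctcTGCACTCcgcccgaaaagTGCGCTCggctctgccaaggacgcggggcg
Mt2: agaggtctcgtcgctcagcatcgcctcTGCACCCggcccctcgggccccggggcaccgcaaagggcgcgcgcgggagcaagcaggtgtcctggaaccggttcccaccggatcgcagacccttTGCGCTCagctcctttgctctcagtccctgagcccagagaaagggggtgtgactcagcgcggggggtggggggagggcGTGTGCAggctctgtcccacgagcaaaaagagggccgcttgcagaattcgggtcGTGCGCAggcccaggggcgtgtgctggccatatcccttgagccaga
Mt3: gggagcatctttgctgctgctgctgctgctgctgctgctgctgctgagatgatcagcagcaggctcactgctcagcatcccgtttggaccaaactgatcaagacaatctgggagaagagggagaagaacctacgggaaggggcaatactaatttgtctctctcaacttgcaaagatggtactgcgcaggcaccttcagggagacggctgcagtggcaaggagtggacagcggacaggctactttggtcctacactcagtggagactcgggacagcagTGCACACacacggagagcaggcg
The search found 3 cores in the Mt1 window, 4 in that of Mt2 and 1 in that of Mt3. Of the 32851 promoters in the table, 25.7% hold at least 1 such core, so that a match alone is common. A match is a string of letters and does not show that a factor was bound.

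Glucocorticoid-responsive genes, a wider list of 21 tested genes that holds Mt1, Mt2 and Hif3a, were mostly lower at 6 months: 13 fell, 9 of them over 2-fold, and 3 rose, with a median log2 change of -0.51. Without 6-month replicate 1 the median was -0.71. Among those that fell, Sgk1, a kinase gene that glucocorticoids raise, went from 5628 ± 1170.1 to 2300.2 ± 241 (log2 change -1.27), and Tsc22d3, the glucocorticoid-induced leucine zipper, from 4834 ± 525 to 2156 ± 194 (-1.16). Nfkbia, an inhibitor of NF-kappaB, fell by 1.25 on the log2 scale, and Fkbp5, a chaperone of the glucocorticoid receptor, by 0.51. The direction was not shared by all, since Klf9, another receptor target, rose from 617, 402 and 353 to 1305, 1114 and 1083 (1.39, SE 0.16), Zbtb16 rose by 0.77, and Pdk4 was 267 at P75 and 262 at 6 months. With the length correction 12 of the 21 fell and 2 rose. The half-site AGAACA was found in 3 of the 19 promoters of the list in the RefSeq table and in 19% of all promoters. Hormone levels were not analysed here.

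Immediate early genes, which neurons switch on within minutes of activity, went the other way. Of 25 tested members 13 rose and 2 fell (median 0.61), and 8 rose over 2-fold. Arc, a plasticity gene whose mRNA travels into dendrites, had 1703, 1002 and 1251 at P75 and 3739, 4782 and 4146 at 6 months, a log2 change of 1.71 (SE 0.37, adjusted p = 0.001). Egr3 had 19.04, 8.34 and 8.84 and 103, 84.3 and 86.6 (2.91, SE 0.40), and Egr1 3584, 3245 and 3674 and 6350.0, 6867 and 6988 (0.94). Nr4a3, an orphan nuclear receptor gene, had 0 to 3 reads per library at P75 and 54 to 89 at 6 months (adjusted p = 6.3e-06), and 6.93, 12.97 and 5.55 normalized read counts at 24 months. Each of these 4 genes was higher in every 6-month library than in every P75 library. The other fast-induced genes were less uniform, with Fos and Nr4a1 at 1.12 and 1.33, Jun and Dusp1 not called, and Jund and Klf2 lower by 0.62 and 0.99. The list median ran down to 0.44 when a single library was left out, that library being P75 replicate 2.

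Circadian clock genes, 20 of them tested, counted 9 that rose and 5 that fell. Among the repressors of the loop, Per3 fell by 0.70 (from 807, 763 and 786 to 448, 498 and 507) while Per1, Per2 and Cry2 rose by 0.32, 0.51 and 0.69, of which Per1 was no longer called with the length correction (0.09) and Per2 was at 0.32. The activators Npas2 and Arntl fell by 0.56 and 0.23, the second of which lost its call with that correction (adjusted p = 0.107). Nfil3, a repressor of the output genes, had the largest change, from 88.2, 92.7 and 53.1 to 218, 198 and 218 (1.47, SE 0.19). The number that fell was 2 without P75 replicate 2, without 6-month replicate 1 or without 6-month replicate 3, and 3 without P75 replicate 1. The hour of death of the mice was not analysed here.

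Of the most abundant myelin transcripts, Mbp and Fth1 were not called. Mbp, myelin basic protein, had 1598645, 1130485 and 1067178 at P75 and 1114065, 2048136 and 1185829 at 6 months (log2 change 0.16, SE 0.60, adjusted p = 0.835). Fth1, the iron-storing ferritin heavy chain, had 524948, 418279 and 498505 and 366269, 684863 and 559929.8 (0.12, SE 0.39), and with the length correction 0.75, still not called (adjusted p = 0.131). For both genes the ages overlapped. Their spread was wide, with 6-month replicate 2 the highest library of these ages for both genes. The P18 libraries, which enter the error, spread from 2134344 to 5580858 in Mbp and from 91427 to 221953 in Fth1. An SE of 0.60 from this shared error could not have shown a moderate change of Mbp. Without 6-month replicate 2 the log2 change was -0.12 for Mbp and -0.08 for Fth1. Kif5a, among the same 10 most abundant genes, rose. This neuronal kinesin heavy chain gene had 63497, 47366 and 38789 at P75 and 136368, 167627 and 118821 at 6 months, with no overlap and a log2 change of 1.51 (SE 0.21, adjusted p = 2.4e-05). Snap25, a SNARE protein of nerve terminals, fell from 130496, 150174 and 143621 to 87058, 88495 and 89430.3 (-0.68, SE 0.17). Mobp was called higher (0.62, adjusted p = 0.096), but its ages overlapped and it lost the call without P75 replicate 2 or 3, without 6-month replicate 2 or 3, and also with the length correction and in DESeq2 on the recovered reads.

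Of the 27 genes of structural myelin proteins, 10 rose, 2 fell and 15 were not called, none moved over 2-fold, and the median log2 change was 0.22. The largest rises were those of Gpr37, Cd82 and Jam3. Gpr37, an oligodendrocyte receptor gene, had 1713, 1342 and 1916 at P75 and 3051, 2760.5 and 2778 at 6 months (0.80, SE 0.17). The tetraspanin gene Cd82 went from 639, 660.1 and 591 to 1085, 1055 and 897, and the junctional adhesion gene Jam3 from 673, 631 and 722 to 1093, 1063 and 1059.7. In these 3 genes every 6-month library was above every P75 library. Mag, the adhesion molecule of the inner tongue, went from 4791 ± 196 to 6856 ± 742 (0.51, adjusted p = 0.002). Cnp, Mog, Mal and Cldn11 were not called, with log2 changes of 0.28, 0.22, -0.02 and 0.03, but Mog was called with the length correction (0.48, adjusted p = 0.007). The 2 that fell, Cryab (-0.46) and Sirt2 (-0.23), lay close to the threshold, and 0 members fell when P75 replicate 1, 2 or 3 or 6-month replicate 1 or 3 was left out. With the length correction Cryab was at -0.03 and not called (adjusted p = 0.912), and Sirt2 at -0.40 (adjusted p = 0.005). Septins, the filament proteins of the adaxonal sheath, divided: Sept8 rose from 3452, 2910.4 and 2736 to 4119.8, 4476 and 3787 (0.45, SE 0.13), Sept4 and Sept7 were not called (-0.23 and 0.03, the first called with the length correction at -0.36), Anln, their scaffold, was at 0.15, and Sept2 fell by 0.26. The call for Sept2 was lost without P75 replicate 1 or 3 and without 6-month replicate 2 or 3.

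Of the earlier oligodendrocyte stages, genes of newly formed cells showed no single direction, and those of precursors rose more often than they fell. Of 19 genes of newly formed oligodendrocytes, 6 rose (31.6%, against 31.2% of all genes) and 8 fell (42.1%, against 29.4%), with a median of -0.10. The noncoding RNA 9630013A20Rik, a mark of premyelinating cells, fell from 128, 91.8 and 184 to 34.1, 35.5 and 41.8 (-1.78, SE 0.22), and Tcf7l2, a Wnt effector of differentiating cells, from 1184, 1201 and 1327 to 886, 852 and 858 (-0.51). Enpp6, a choline phosphodiesterase gene of the same stage, rose from 83.2, 98.3 and 101 to 188, 203 and 165 (0.97, SE 0.18), and Gpr17 by 0.62, a call that was lost without 6-month replicate 1. Of 16 genes of oligodendrocyte precursors 11 rose (68.8%) and 2 fell (12.5%), with a median of 0.32. With the length correction 9 of 15 rose and 3 fell. Pdgfra, the growth factor receptor that defines them, went from 662 ± 42.0 to 814 ± 62.9 (0.30), Xylt1, of proteoglycan synthesis, from 9.02, 12.1 and 8.84 to 55.2, 36.4 and 33.1 (1.93), the largest change of this list, and Sox6 from 110.2, 115 and 90.7 to 244, 205 and 189.8 (1.01). Cspg4, the NG2 proteoglycan of these cells and of pericytes, had 142, 161 and 166 at P75 and 169.8, 138 and 149 at 6 months and was not called. The 2 precursor genes that fell were Pcdh15, from 415, 260 and 322 to 240, 223 and 229 (-0.50, SE 0.14), and Megf11, from 1607, 1654 and 1785 to 1384, 1227 and 1399 (-0.33, SE 0.08).

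Lipid synthesis genes rose more often than they fell. In the cholesterol pathway 9 of 19 genes rose and 4 fell. Cyp51, which removes a methyl group from lanosterol, rose from 1459, 1467 and 1776 to 2349, 2367 and 2309 (0.58, SE 0.16), and Sc4mol, of a later demethylation step, from 1701, 1713 and 2209 to 2962, 3067 and 2968 (0.69, SE 0.15). Pmvk, an early mevalonate kinase step, fell from 1649.5, 1831 and 1853 to 1027, 1306 and 1169.7 (-0.61), and the number that fell was 2 without P75 replicate 2, without 6-month replicate 1 or 3, or with the length correction. In fatty acid synthesis 8 of 16 genes rose and 1, Me1, fell, a fall that was lost without any 1 of the libraries except 6-month replicate 2. With the length correction 6 of the 16 rose and 2 fell, and the median went from 0.27 to 0.14. Among all genes of that fit 30.2% rose. Fads2, the delta-6 desaturase of long polyunsaturated fatty acids, had 378, 367 and 273 at P75 and 1369.8, 1444 and 1165 at 6 months, the largest change in the lipid lists (1.97, SE 0.15, adjusted p = 1.4e-07), and 714, 769.8 and 756 at 24 months. Scd2, a stearoyl-CoA desaturase, rose by 0.53 and Fasn, the fatty acid synthase, by 0.42, or 0.17 with the length correction. Of the genes for galactolipids and sphingolipids, 12 of 16 rose and none fell in limma, edgeR or DESeq2. With the length correction 9 of the 16 rose and 0 fell, and the median went from 0.315 to 0.255. The rises were small, with Elovl5 at 0.65, Degs1 at 0.42 and Fa2h, the hydroxylase of myelin galactolipids, at 0.34 (not called with the length correction, 0.23), and the number that rose was 6 without 6-month replicate 1 and 7 without P75 replicate 1 or 2.

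The list with the most falls was that of the cytosolic ribosomal proteins. Of 81 tested genes 77 fell and 1 rose, with a median log2 change of -0.86, against 29.4% that fell among all genes. Their share of the reads was 6.99%, 6.89% and 8.34% in the P75 libraries and 3.28%, 4.50% and 4.81% at 6 months. Rpl35 had 14802, 15626 and 18416 at P75 and 5235, 7926 and 8340.5 at 6 months (-1.21, SE 0.17), and Rpl38 19392, 19634 and 25066 and 6802, 10844 and 11313 (-1.17, and -0.38 with the length correction). Ribosomal protein genes have many pseudogenes that share reads. These are short transcripts, with a median of 1481 exon bases. With the length correction 55 of 80 fell and 2 rose, with a median of -0.48. Among all genes of that fit 30.0% fell. Merged exon length may misstate mRNA length here, so that a fall beyond the length trend cannot be decided. Rpl13a, with 3316 bases in 13 merged exons, went from -0.92 to -1.08 with the correction, whereas Rpl38 has 542 bases. Mitochondrial ribosomal proteins followed, with 65 of 75 that fell and 3 that rose (median -0.54, and -0.31 with the correction, where 47 fell and 5 rose). The number that rose was 1 without P75 replicate 3 or 6-month replicate 2. Mrps21 went from 1799.8, 2193 and 2247 to 708, 960.4 and 1016 (-1.23).

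Of the 77 nuclear genes for subunits of oxidative phosphorylation, 65 fell and 3 rose (median -0.77). Among the largest falls were those of 2 subunits of complex I, Ndufa6 from 6179, 6869 and 8312 to 2348, 2902 and 3321 (-1.32, SE 0.12) and Ndufa5 from 5545, 6674 and 7275 to 2155, 2792 and 3098 (-1.28). Both were smaller with the length correction, at -0.48 and -0.72. Of the 3 genes that rose, Atp5a1 of the ATP synthase had 17753, 18402 and 19164 and 24306, 24108 and 23683 (0.38, SE 0.10), and Sdha of complex II 9062, 9286 and 9878 and 11961, 12749 and 11712 (0.37), while Atp5b, the catalytic beta subunit of the ATP synthase, was not called (0.17). The list has a median of 1265 exon bases, and with the length correction 43 of 76 fell and 13 rose, with a median of -0.27. Cox4i1 of complex IV changed sign, from -0.43 to 0.26. Most glycolysis genes did not fall with them, as 14 of 21 rose and 5 fell (median 0.50), or 12 and 4 with the length correction. Abundant members were among the falls, with Aldoa, Gapdh and Ldhb at -0.33, -0.35 and -0.42, the last not called with that correction (-0.16). The summed share of the list was 1.15% ± 0.131 of the reads at P75 and 1.14% ± 0.0398 at 6 months (SD, n = 3 each). The glucose transporter Slc2a3 of neurons went from 1519, 1605 and 1322 to 3081, 2589 and 2737 (0.92), Pgk1 rose by 0.77 and the monocarboxylate transporter Slc16a1 by 0.57, while Aldoc, the aldolase of astrocytes, fell from 38968, 44188 and 40338 to 27771, 32010.2 and 27465 (-0.50). The number that fell was 2 without P75 replicate 2 or without 6-month replicate 1 or 3. Eno1 rose by 2.11, from 56.8 ± 23.2 to 235 ± 36.6, but its many processed copies make this count uncertain.

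**Figure D4:**
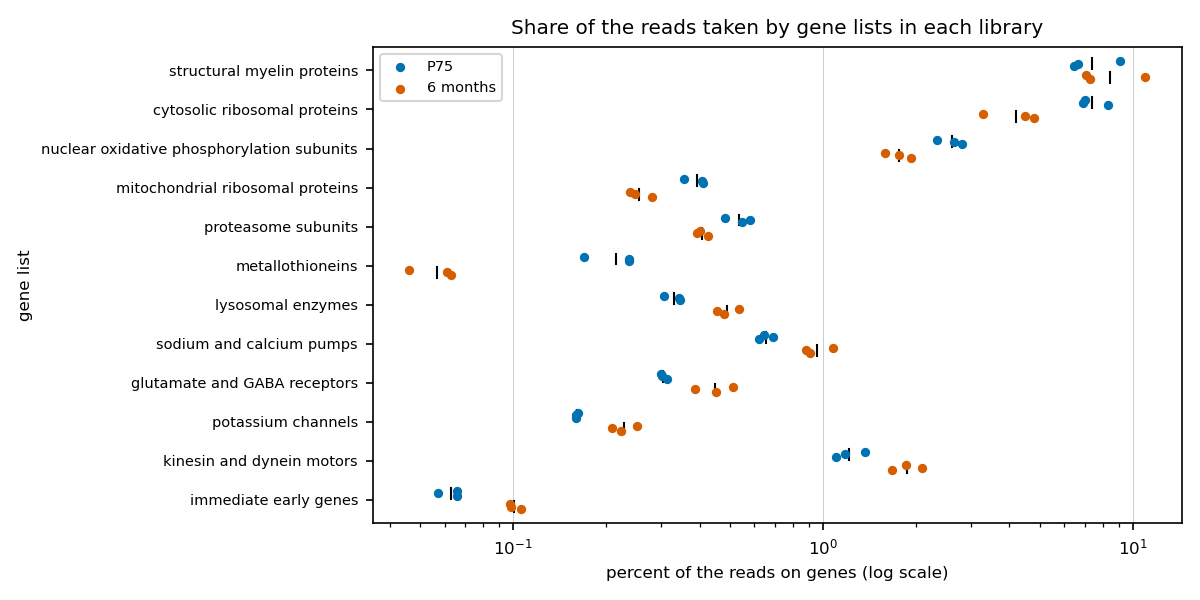
Percent of the reads on genes (x axis, log scale) taken by 12 gene lists (y axis) in each of the 3 libraries at P75 (blue) and at 6 months (orange), with black marks at the means. Ribosomal proteins fell from 7.41% to 4.2% on average and metallothioneins from 0.214% to 0.0567%, without overlap, whereas the structural myelin proteins overlapped between the ages.

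Proteasome subunits also fell, with 24 of 38 lower and 5 higher (median -0.46, and -0.17 with the length correction, where 17 fell and 6 rose). All 7 tested alpha subunits of the core fell, such as Psma7 from 3956, 4862 and 4924 to 2244, 2585 and 2879 (-0.83), and the 5 that rose, Psmd1, Psmd5, Psmd7, Psmd11 and Psmd13, encode parts or assembly factors of the regulatory cap, of which other members such as Psmd8 (-0.41) fell, though not with the correction (-0.14, adjusted p = 0.125). Psmd11 went from 427, 396 and 381 to 795, 755 and 710.4 (0.91, SE 0.09). Of 24 chaperones 13 rose and 4 fell, and without 6-month replicate 1 the number that rose was 8. Hspa5, the chaperone of the endoplasmic reticulum, went from 3370.1, 3853 and 4388 to 9213, 7992 and 7813 (1.11, SE 0.24), and Hspa9 of mitochondria from 3117, 2950.3 and 3219 to 6273, 5470.4 and 5315 (0.87), while the small Hspe1 fell from 3569.5, 3644 and 4101 to 1818, 2142 and 2339 (-0.85). Initiation and elongation factors were mixed, with 10 of 58 higher and 24 lower, or 16 and 25 with the length correction, a list that also holds Argonaute genes under the names Eif2c1 to Eif2c4 and the Eif2ak kinases. Eef1a2, the elongation factor of neurons and muscle, rose from 8067, 9198 and 6618 to 14842, 15079.8 and 13487 (0.87), whereas Eif4a2, an RNA helicase of initiation, fell from 22692, 25374 and 28836 to 16332, 15934 and 19223 (-0.58).

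Lysosomal genes rose almost throughout, as 23 of 27 rose and none fell in limma, edgeR or DESeq2, with a median of 0.55, and 23 of 26 rose with the length correction. They break down membrane lipids, glycogen and protein. Gaa, the acid glucosidase that degrades glycogen, had 2487, 2871 and 2455 at P75 and 5850.3, 5043 and 5104 at 6 months (1.03, SE 0.10, adjusted p = 6.3e-07). Npc1, which exports cholesterol from the lysosome, had 1060.2, 1000.4 and 1068 and 2306, 2144 and 1997 (1.04), and Gla, which cleaves galactose from globosides, 164, 153 and 154 and 400.5, 332 and 287 (1.10). In each of them every 6-month library was above every P75 library. The sphingolipid genes Asah1, Smpd1 and Arsa rose by 0.99, 0.75 and 0.55, while Galc, which degrades the major galactolipid of myelin, was not called (0.09). Among iron genes the largest rise was that of Cp, the ferroxidase ceruloplasmin, from 75.2, 63.0 and 60.8 to 243, 227 and 209 (1.76, SE 0.18), and Trf, the transferrin made by oligodendrocytes, rose from 10822, 12126 and 12847 to 21612, 21939 and 18302 (0.79). Ftl1, the light chain of ferritin, fell from 6296, 5863 and 6581 to 2998, 4043 and 4306 (-0.74, and -0.45 with the length correction). Of 14 iron genes 7 rose and 2 fell, and 1 fell without P75 replicate 1 or 3 or without 6-month replicate 2.

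**Figure D5:**
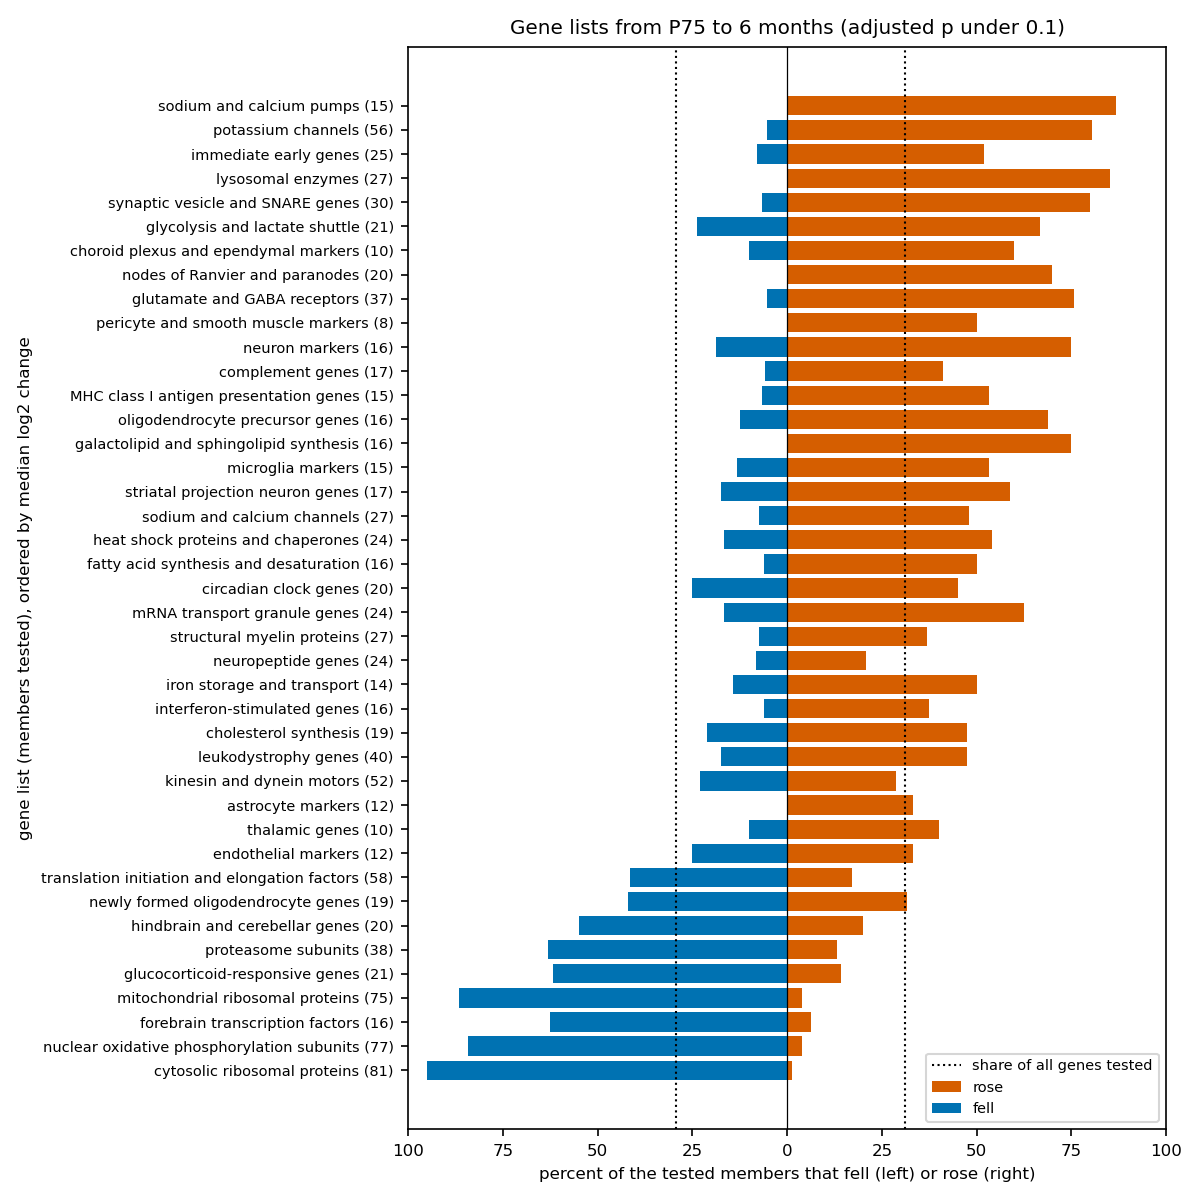
Percent of the tested members of each gene list that fell (left, blue) or rose (right, orange) from P75 to 6 months, with the number tested in parentheses and lists ordered by their median log2 change. Dotted lines mark the shares of all tested genes, 29.4% that fell and 31.2% that rose. Ribosomal, oxidative phosphorylation and proteasome lists reach far to the left, and pumps, potassium channels, lysosomal and synaptic lists far to the right.

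Genes of neuronal excitability rose widely. Of 56 potassium channel genes 45 rose and 3 fell (median 0.66), and with the length correction 41 of 55 were higher and 5 lower. Kcnj3, a G protein-gated inward rectifier, had 75.2, 73.2 and 78.5 at P75 and 441, 304 and 306 at 6 months (2.17, SE 0.18, adjusted p = 2.9e-07), and its partners Kcnj6 and Kcnj9 rose by 1.44 and 1.53. Kcnj10, the inward rectifier of astrocytes and oligodendrocytes, went from 4617, 3508 and 3682 to 7026, 7436 and 5732 (0.78). Kcnn2, Kcnk2 and Kcns3 fell by 0.33, 0.32 and 0.36. Of 15 pumps and exchangers of sodium and calcium 13 rose and none fell in limma, edgeR or DESeq2. Atp2b4, a calcium pump of the plasma membrane, had 166, 129 and 104 and 1016, 652 and 687 (2.55, SE 0.20), with no overlap between the ages. Among 27 sodium and calcium channels 13 rose and 2 fell. Scn2b and Scn3b, auxiliary beta subunits of sodium channels, rose by 0.90 and 0.96, whereas the pore-forming Scn1a and Scn8a were not called (-0.22 and 0.16), although Scn1a was with the length correction (-0.29). With the length correction 10 of 26 rose and 6 fell, and without 6-month replicate 1 the number that fell was 4.

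Receptors and synaptic genes showed the same direction. Of 37 glutamate and GABA receptor genes 28 rose and 2 fell (median 0.42). Beside Gabbr2, Grm4, a presynaptic metabotropic glutamate receptor, went from 126, 89.9 and 78.5 to 461, 389 and 396 (2.09, SE 0.17), and the NMDA receptor subunit Grin2a from 27.1, 19.5 and 22.1 to 85.3, 55.9 and 79.8 (1.63). The 2 that fell were Gabra2, from 762, 739 and 856 to 532, 419 and 405 (-0.80), and Gabrb1, which fell by 0.998 on the log2 scale. Both encode subunits of GABA-A receptors and lie near each other on chromosome 5. The number that fell was 4 with the length correction. Of 30 genes of synaptic vesicles and SNAREs 24 rose and 2 fell, or 1 without P75 replicate 2 or 6-month replicate 3. Sv2a had 3043, 2938 and 2243 and 9759, 8283 and 7534 (1.64), the active zone scaffold Rims1 528, 275 and 229 and 1444, 1408 and 1192 (2.06), and the vesicular glutamate transporter Slc17a7 6248, 6575 and 4571 and 15474, 15193 and 14946 (1.41). In these the ages did not overlap. Snap25, the most abundant member, fell, as described above. The summed share of the list was 1.27% ± 0.0813 of the reads at P75 and 1.40% ± 0.102 at 6 months (SD, n = 3 each).

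At the node of Ranvier and the paranode, where axon and sheath are joined, 14 of 20 genes rose and none fell in limma, edgeR or DESeq2 (median 0.42), while with the length correction 13 of 19 rose and 2 fell, and without P75 replicate 1 or without 6-month replicate 1 the number that fell was 1. Tnr, tenascin R of the nodal matrix, had 60.1, 52.9 and 43.1 at P75 and 262, 194 and 169 at 6 months (1.97, SE 0.18, adjusted p = 6.4e-07). Kcna2, of the juxtaparanodal potassium channel, had 28.1, 24.1 and 13.3 and 97.5, 79.0 and 69.1 (1.91), and its partner Kcna1 2247, 2165 and 2302 and 4332, 3754 and 3625 (0.80). The axonal paranode genes Cntnap1 and Cntn1 rose by 0.69 and 0.44, whereas Nfasc, whose glial form binds them and whose other form sits at the node, was not called (0.14). Among 52 kinesin and dynein genes 15 rose (28.8%) and 12 fell (23.1%), near the background in both directions. Beside Kif5a, the motor gene Kif1a of axonal transport rose from 17472, 16592 and 13162 to 31351, 40009 and 25529 (1.02) and the heavy chain gene Kif5c by 0.63. Dync1li1, a dynein light intermediate chain, went from 374, 356 and 278 to 1397, 1129 and 1198 (1.89, SE 0.12). Kif5b, the widely expressed heavy chain, was not called (0.37), and the dynein light chain genes Dynlrb1 and Dynll1 fell by 0.68 and 0.54 (-0.21 and -0.54 with the length correction). Of 24 genes of mRNA transport granules 15 rose and 4 fell. Hnrnpa2b1, which binds the transport signal of Mbp mRNA, fell from 19164, 21173 and 20986 to 14786, 14545 and 14428 (-0.48, SE 0.10), and Hnrnpk, a partner in these granules, rose from 5241, 4936 and 5249 to 10150.5, 9282 and 9105 (0.89). The largest rises of the list were those of Hnrnpa1, which has near-identical copies, and Purb, with 1.63 and 1.43. Qk, the quaking gene for splicing and stability of myelin mRNAs, was at -0.04 and not called.

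Neuropeptide genes depended on the fit. In the first fit 5 of 24 rose and 2 fell, with a median of 0.22 that was 0.13 without P75 replicate 1. Without P75 replicate 1 or 3, or without any 1 library of 6 months, the number that fell was 1. They are short, with a median of 820.0 exon bases, and with the length correction 21 rose and 1 fell, with a median of 0.80. Besides Pdyn, Trh, the thyrotropin-releasing hormone gene, rose in both fits, from 323, 286 and 349 to 629.6, 604 and 524 (0.87 and 1.19). Crh, of the stress axis, fell in both, from 226, 295 and 272 to 162, 158 and 139 (-0.78 and -0.38). Sst, somatostatin, had 4471, 6403 and 4458 at P75 and 4147, 4722 and 4814 at 6 months, at -0.15 in the first fit and 0.60 in the second. Neuron markers as a list counted 12 of 16 that rose and 3 that fell (median 0.41). Their summed share of the reads was 1.16% ± 0.0883 at P75 and 1.14% ± 0.0698 at 6 months, ranges that overlap. Camk2a, a kinase of excitatory neurons, rose by 0.86, the neurofilament genes Nefl, Nefm and Nefh by 0.46, 0.43 and 0.39, and Tubb3 and Stmn2 fell by 0.48 and 0.36. With the length correction 10 rose and 2 fell, and Stmn2 (-0.12, adjusted p = 0.225) and Nefh (0.19, adjusted p = 0.174) were no longer called. The part of neuronal material in the rise of the channel, receptor and pump lists was not tested.

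Genes that mark brain regions moved in different directions. Of 16 forebrain transcription factors 10 fell and 1 rose (median -0.55, and 11 fell with the length correction). The single rise was lost without any 1 of the libraries except 6-month replicate 3. Lhx8, of cholinergic neurons, had 67.1, 77.0 and 69.7 at P75 and 35.8, 39.9 and 42.8 at 6 months (-0.84, SE 0.19), and Dlx2, of inhibitory interneurons, 248, 287 and 253 and 142, 176 and 149.9 (-0.75). The hindbrain and cerebellar list, with 11 of 20 lower and 4 higher, held separate kinds. All 7 called Hox genes, which mark the hindbrain and spinal cord, fell, as in Hoxa5 from 135, 189 and 192 to 28.4, 48.8 and 55.5 (-1.97, SE 0.61), Hoxb5 from 138, 133 and 186 to 36.6, 47.9 and 43.8 (-1.80, SE 0.64) and Hoxb2 (-1.71). The P18 libraries, which enter the error, spread from 17.1 to 238.8 in Hoxa5. Cerebellar genes were mixed, with rises of Car8 and Calb1 and of Cbln1 of granule cells, from 1744, 1715 and 1437 to 2469.8, 2334 and 2179.8 (0.52), and Gabra6, from 1554, 1361 and 1569.8 to 2287, 1752 and 2044 (0.43), and falls of En2, Zic2 and Zic4. Of 17 genes of striatal projection neurons 10 rose and 3 fell, led by Pdyn and Drd2, the dopamine receptor, which went from 39.1, 27.8 and 24.3 to 179.6, 139 and 105 (2.17, SE 0.23), with Drd1a from 193, 213 and 249 to 604, 469 and 542 (1.30). Ido1 fell by 1.52 and Foxp2 by 0.72. Of 10 thalamic genes 4 rose, with Prkcd at 0.74, and Tcf7l2 fell, and 2 fell without P75 replicate 1. The length correction gave 4 that rose and 4 that fell (median -0.08). How evenly the regions of the brain entered the preparations was not tested.

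Markers of other glia and of vessels were mixed. Among astrocyte markers 4 of 12 rose and none fell in limma, edgeR or DESeq2, near the background of 31.2%. Slc1a3, a glutamate transporter, rose from 9324, 7446 and 9179 to 16798, 14362 and 14951 (0.83), while Gfap, Aldh1l1 and S100b were at 0.01, -0.03 and -0.02 and not called, and the number that rose was 2 without P75 replicate 2 or 6-month replicate 1. Without P75 replicate 1, 1 fell, and with the length correction 3 rose and 1, Aldh1l1, fell (-0.20). Among microglia markers 8 of 15 rose and 2 fell, or 1 without P75 replicate 3 or 6-month replicate 1, and with the length correction 12 rose and 1 fell. Csf1r, the receptor on which these cells depend, went from 765, 751 and 780.5 to 1394, 1370.5 and 1198 (0.78, SE 0.10), and Itgam from 200.4, 193 and 217 to 378, 319 and 303 (0.70). Aif1, known as Iba1, fell from 446, 344 and 375 to 197, 172 and 197 (-1.03, SE 0.13), which held with the correction (-0.73), whereas Tyrobp changed from -0.29 to 0.50. The summed share of the microglia list was 0.0482% ± 0.0029 at P75 and 0.0578% ± 0.00467 at 6 months (SD, n = 3 each). Endothelial genes divided, with 4 of 12 higher and 3 lower. Vascular growth factor receptors Flt1 and Kdr rose by 1.15 and 1.25, and the blood-brain barrier transporter Slco1a4 fell by 0.73. Of 8 genes of pericytes and smooth muscle 4 rose, led by Anpep (1.17), and 2 rose without P75 replicate 2 or 3 or without 6-month replicate 1 or 2, while with the length correction 4 rose and 2 fell. Of 10 genes of choroid plexus and ependyma 6 rose and 1 fell, with Aqp1 at 1.61, Folr1 at 1.12 and Ccdc153 at -1.52, and Ttr, the transthyretin of the choroid plexus, had 24235, 28194 and 22809 and 26426, 28974 and 30793 and was not called. In the length-corrected fit 8 of these genes rose, among them Ttr (0.71, adjusted p = 1.6e-04). Alas2, the heme synthesis gene of red cells, was at -0.06 and not called.

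Of 17 complement genes 7 rose (41.2%, against 31.2% of all genes) and 1 fell, with a median of 0.40 that was 0.25 without P75 replicate 1. Serping1, the inhibitor of the first component, had 133, 116 and 128 at P75 and 297, 312 and 289 at 6 months (1.25, SE 0.12, adjusted p = 6.0e-07), and Clu, clusterin, 13495, 14389.7 and 13135 and 22750.5, 23537 and 19956 (0.69). Cd59a, which blocks the membrane attack complex, fell from 696, 782 and 869 to 362, 352 and 380.5 (-1.09, SE 0.14). Of 15 genes of MHC class I antigen presentation 8 rose and 1 fell, with H2-D1 from 496, 543 and 583 to 1022, 895 and 798 (0.74) and the immunoproteasome subunit Psmb10 lower by 0.83. The number that fell was 2 without P75 replicate 1 or 2 or without 6-month replicate 1, and the median of 0.33 was 0.17 without P75 replicate 2. Of 16 interferon-stimulated genes 6 rose (37.5%), near the background, and 1 fell, and without 6-month replicate 1 the numbers were 3 and 2. The fall, of Isg15, was lost without P75 replicate 1 or 3 or without 6-month replicate 2 or 3, and turned to 0.12 with the length correction. Cxcl10 (1.06), whose ages overlapped, lost its call without 6-month replicate 1 or P75 replicate 2.

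Of 40 genes in which mutations cause leukodystrophies, inherited diseases of the white matter, 19 rose and 7 fell (median 0.18). Arsa and Psap, of lysosomal lipid breakdown, rose by 0.55 and 0.48, and Hspd1, the mitochondrial chaperone, went from 3498, 3397 and 3605 to 5551, 5244 and 5061 (0.59). The subunits of ribonuclease H2, whose loss causes Aicardi-Goutieres syndrome, fell, with Rnaseh2c from 458, 451 and 573 to 200.7, 275 and 312 (-0.92, SE 0.15) and Rnaseh2b from 419, 534 and 479.8 to 290.0, 298 and 267 (-0.74). Aimp1, a scaffold of the tRNA synthetase complex, was at -0.52 in the first fit and 0.01 with the length correction. The initiation factor eIF2B, mutated in vanishing white matter disease, showed no common direction, as Eif2b1 and Eif2b4 fell by 0.29 and 0.39, Eif2b2 rose by 0.21, and Eif2b3 and Eif2b5 were not called.

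Among 6 tested genes known to differ between C57BL/6 substrains in sequence or expression, all changed. Nnt, the mitochondrial transhydrogenase gene that is partly deleted in one substrain, had 854, 876 and 786 at P75 and 356, 319.5 and 419 at 6 months (-1.21, SE 0.13, adjusted p = 2.2e-06), and 361, 396 and 431 at 24 months. Entpd4, a nucleotidase gene of the Golgi whose count may be shared with a near-identical copy, rose from 786, 964 and 818 to 3127, 3006 and 3220.0 (1.87, SE 0.09), with 1492, 1612 and 1714 at 24 months and 536, 600.0 and 574 at P18. Wdfy1, described above, belongs to this list as well. In these 3 genes the libraries of an age lay close together and P75 and 6 months far apart. Fgfbp3 fell by 0.81 and Ide rose by 0.57. The study's methods name c57Bl6/N mice for all ages. The part of the source of the mice in these changes was not tested, and it cannot be told apart from age here. Xist was at a normalized read count of at most 1.78 in the 6 libraries and the Y-linked Ddx3y at 1716 or more, and the mice are given as male. Taken alone, 3 libraries against 3 allow no exact permutation p under 0.1, so that all calls rest on the error that limma shares across genes.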

How the data were processed

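Myelin RNA was sequenced from 12 wild-type mouse brain preparations, 3 at each of 4 ages. Per the labels, the authors aligned reads to mm9 with TopHat2 (2.0.8; the methods name another version), used SAMtools (0.1.19), counted reads on genes with HTSeq (0.5.4p1) and normalized with DESeq. The deposited signal values are normalized read counts, that is, gene counts divided by a size factor. Each column gave whole reads for all genes within 0.1, and edgeR (4.0.16) and DESeq2 (1.42.0) were run on these reads as alternatives. The main test was limma (3.58.1, R 4.3.3) with a trend on log2(value + 1), age as the only term, and 8 residual degrees of freedom from all 12 libraries, for 14634 of 21937 genes with a mean of at least 10. The test and the scripts were checked on simulated data. Exon lengths and positions came from the mm9 annotation, promoters from RefSeq (GRCm38.p6), and length and GC trends were removed with a smoother of span 0.3. Figures were drawn with matplotlib (3.10.9).

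Deviations of same-numbered libraries of both ages correlated weakly over genes (r 0.161, 0.101 and 0.187, against -0.164 to -0.012 for other pairs). The labels state no pairing. The deviations are from the mean of each age, so that a higher r for some pairs lowers it for others. No chance level was computed, so that a pairing is not established. The comparison and the 46 gene lists were chosen with earlier results of these data known. Named were the 10 largest rises and 10 largest falls among called genes with a mean over 100 at either age and no overlap, the 10 most abundant genes, and in each list the 2 most abundant members, the 3 largest called rises and falls, and every member of a list of at most 10. List members named beyond this rule, such as Sgk1, Tsc22d3, Nfkbia, Fos, Mag, Pdgfra and the neurofilament genes, were picked after their values had been seen. Alternatives covered pseudocount, filter, samples, scaling, tool, threshold, length and GC, a replicate block, and each library left out. Depth limits genes with few reads, and counts cover no error of the preparation. Results for some genes are not reported here.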

Additional observations from a re-analysis of the deposited data

How the results depend on the processing

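The main counts were 8865 genes changed and 1362 changed over 2-fold. With a filter for a mean over 100, 723 genes changed over 2-fold, 421 higher and 302 lower. The number that fell over 2-fold was 375 with a pseudocount of 10, 320 with the length and GC correction, and 321 with the replicate block and that correction together. The replicate block alone gave 8695 changed genes and 1363 over 2-fold, and among 306 genes chosen by the naming rule it ended the calls of Ugt8a, Aldoa and Rarb and no other. edgeR called 8948 genes and DESeq2 8631. With single libraries left out, 7708 to 8364 genes changed, with 3977 to 4341 higher and 3731 to 4029 lower. Over 2-fold, 1136 to 1567 changed, with 687 to 883 higher and 449 to 711 lower, the lowest values without 6-month replicate 1.

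The direction of 7 of these genes turned under the length and GC correction, with and without the replicate block. Their log2 changes became 0.26 for Cox4i1, -0.015 for Kcnc1, 0.268 for Gnrh1, 0.603 for Sst, 0.007 for Aimp1, 0.504 for Tyrobp and 0.124 for Isg15. The cause was not tested. Of all other values of these genes across the alternatives, 4971 kept their direction and their side of the threshold, 214 lost the call, 63 gained it, and 53, of genes not called on either side, changed sign. Of list counts 1577 stayed within 1.5 times and 171 did not.

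The limits are those of 3 libraries per age. The sources used here name no batch for any library. Genes with a mean below 100 had a median SE of 0.248, and many small changes were not detectable there.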
